A study of Mus musculus with 4 samples.

Results

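Transcripts of Penk, the precursor of the enkephalins, and of membrane peptidases that cleave small peptides at the cell surface were examined in Sca-1 cells from failing and healthy murine hearts. The set holds 8 genes: Penk, the neprilysin family members Mme and Ece1, the aminopeptidases Anpep, Enpep and Lnpep, and the dipeptide-releasing enzymes Ace and Dpp4. All probe sets annotated to these symbols were taken, which gave 14 of the 45037 probe sets and 7 of the 8 genes. The expression of Lnpep, the insulin-regulated aminopeptidase, was not analysed here. The set was chosen by measured values, as Penk and Mme lay among the largest falls of Cyc against Wt cells on these same arrays. All differences between Cyc and Wt cells of the members are therefore given as a description, and where members are counted past the thresholds applied to all probe sets, the count is no test of them.

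The arrays hold RNA of freshly isolated Sca-1 cells, enriched with magnetic beads, from FVB mice aged 6 weeks. Ly6a, the gene of the Sca-1 antigen, was not analysed here, so the sort was not checked against it. The study itself reports Ly6a as expressed in every pool, at near-equal levels in Cyc and Wt cells. Cyc cells came from double-transgenic mice overexpressing CyclinT1 and Gαq under the α-MHC promoter, a model of heart failure in which both transgenes are driven in cardiomyocytes, and Wt cells came from wildtype littermates. Each group had 2 arrays, each with RNA of cells pooled from 2 to 3 hearts, and replicates 1 and 2 stand for experiments 1 and 2, each with 1 Cyc and 1 Wt pool. The intensities are normalized values on a linear scale. Between 18460 and 21444 of the probe sets reached an intensity of 50 per array, and values below this were treated as near background. The sorted pools held RNA of several cell types, with summed intensities of 53484 to 58531 for 9 endothelial markers and of 26894 to 43046 for 9 fibroblast markers. In such pools fewer cells of a type and less RNA per cell cannot be told apart. The Cyc pool of replicate 2 stood apart through genes of airway epithelium, summed over 6 markers at 17972, where the Cyc pool of replicate 1 had 378.2 and the Wt pools had 3162 and 175.5.

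Enkephalins are short opioid peptides cut from proenkephalin by prohormone convertases and carboxypeptidases, and they act on delta and mu opioid receptors. Once outside the cell they are inactivated by peptidases anchored in the membrane, chiefly neprilysin and aminopeptidase N, the product of Anpep. The same enzymes shape other peptide signals of the heart: neprilysin degrades natriuretic peptides and bradykinin, Ace forms angiotensin II and degrades bradykinin, Enpep trims angiotensin II, Ece1 makes active endothelin, and Dpp4 clips chemokines and incretins.

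Mme was the peptidase of the set that lay lower in both Cyc pools, and the windows before its starts are shown because its transcripts begin at several sites that these arrays, which read transcripts near their 3' end, cannot separate. RefSeq (GRCm38.p6) gives 3 such windows for Mme, the first pair of starts lying 661 bases apart on the plus strand of chromosome 3. Below are the 250 bases before each of these starts, chr3:63294961-63295210 for the first and chr3:63295622-63295871 for the second, with capitals marking GC boxes (GGGCGG) and CCAAT boxes (CCAAT) on either strand.
Mme start 1: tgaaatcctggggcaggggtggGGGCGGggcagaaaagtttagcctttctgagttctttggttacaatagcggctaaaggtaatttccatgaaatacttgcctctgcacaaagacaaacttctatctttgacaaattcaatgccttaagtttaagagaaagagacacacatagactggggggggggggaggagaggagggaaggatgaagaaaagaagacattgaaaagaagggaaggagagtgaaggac
Mme start 2: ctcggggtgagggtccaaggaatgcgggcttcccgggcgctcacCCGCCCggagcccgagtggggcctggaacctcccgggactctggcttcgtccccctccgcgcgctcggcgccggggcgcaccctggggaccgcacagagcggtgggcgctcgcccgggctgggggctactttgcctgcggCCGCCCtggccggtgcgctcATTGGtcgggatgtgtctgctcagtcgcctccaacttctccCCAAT
The first window is 45.6% G and C with 2 CpG sites and 1 GC box, and the second is 73.2% G and C with 27 CpG sites, 2 GC boxes and 2 CCAAT boxes. Of all 32851 RefSeq windows of this length, 32.7% hold a GC box and 33.8% a CCAAT box. A TATA box (TATAAA), which 12.4% of all windows hold, is in none of the Mme windows but in a window of 3 member genes, Ace, Enpep and Dpp4. The cyclic AMP response element TGACGTCA, held by 1.55% of all windows, was found in none of the 13 windows searched, which belong to the 7 member peptidases, Lnpep included. No window of Penk was searched. Such matches describe letters and not bound sites.

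The Penk intensity was 78.2 in Cyc replicate 1 and 29.4 in Cyc replicate 2, whereas Wt replicates 1 and 2 had 392.1 and 359.4. Both Cyc pools lay far below both Wt pools, and the Cyc pool of replicate 2 was near background. The mean was 53.8 ± 34.5 in Cyc and 376 ± 23.1 in Wt cells (SD, n = 2 pools each). On the log2 scale with 16 added to each intensity, the difference was -2.58 (standard error 0.41), and the scale understates changes of dim genes. Within experiment 1 it was -2.12 on this scale, and the Cyc intensity itself, with nothing added, was 5.02-fold lower. Within experiment 2 it was -3.05, and since the Cyc value lies under 50 the intensity itself was at least 7.19-fold lower. A single probe set reads Penk on this array, so no other reading of the gene stands beside it.

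Mme, the gene of neprilysin, was read by a pair of probe sets. The brighter probe set had intensities of 23.6 and 18.8 in Cyc against 109.3 and 84.6 in Wt cells. Again both Cyc pools lay below both Wt pools, and both were near background. Mme was therefore at least 1.92-fold lower in Cyc cells, with a log2 difference of -1.60 (standard error 0.25), -1.66 in experiment 1 and -1.53 in experiment 2. The other probe set was near background throughout, with 2.6 and 9.0 in Cyc against 12.9 and 10.6 in Wt cells, so it gives no second reading of the difference.

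Over all 20680 tested probe sets, 24 were lower in Cyc cells past the study's thresholds of a 2-fold change and an unadjusted p under 0.05 (limma), a share of 0.116%. Among the 8 member probe sets tested there were 2, those of Penk and Mme. As these genes were selected on this contrast, nothing is read from their count. Lower by 1 or more on the log2 scale with 16 added, in each experiment taken alone, were 7 of all tested probe sets, or 0.0338%, Penk and Mme among them, although the intensity bound for Mme itself was at least 2.19-fold in experiment 1 and at least 1.69-fold in experiment 2. Both Cyc pools lay below both Wt pools in 8.23% of all tested probe sets and in the same 2 of 8 members. The Penk difference was the most negative of all 20680, and that of Mme stood at rank 10. After Benjamini-Hochberg adjustment of limma's p-values 0 probe sets stayed under 0.05, while 412 were under 0.05 before adjustment, and with the experiment as a block 1 stayed under it after adjustment.

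**Figure D1:**
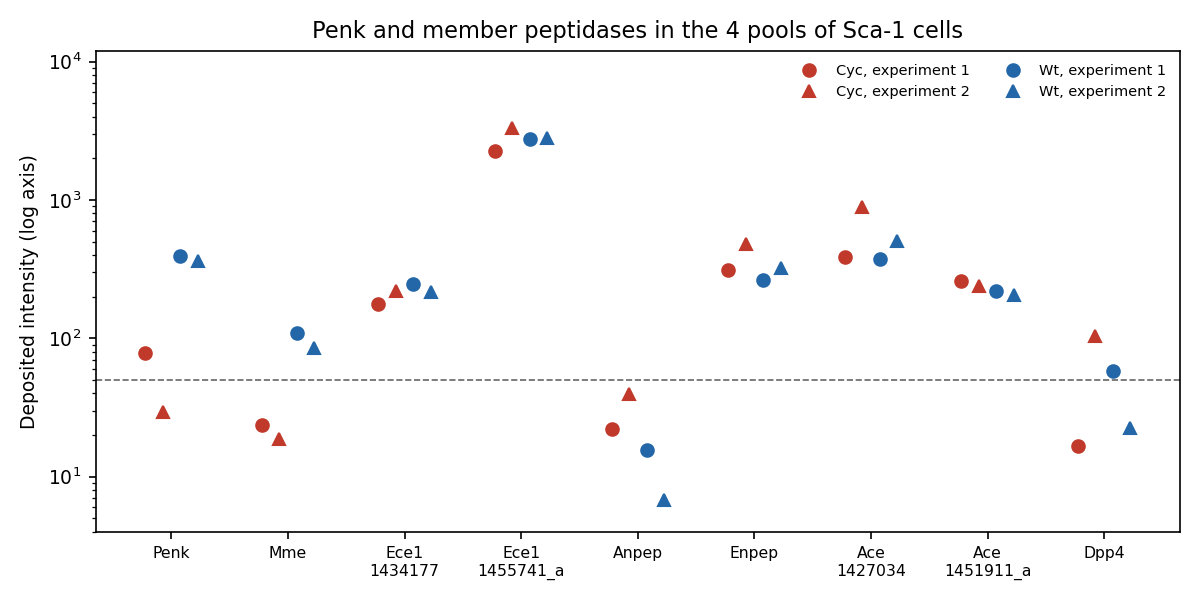
Deposited intensity (log axis) of the 8 tested member probe sets and of the Anpep probe set in each of the 4 pools, where red marks Cyc and blue Wt, circles stand for experiment 1 and triangles for experiment 2, with a dashed line at 50. Penk and Mme lie lower in both Cyc pools than in both Wt pools, Anpep stays under 50 everywhere, and the groups overlap in both Ece1 probe sets, in Enpep, in the first Ace probe set and in Dpp4.

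Ece1, the endothelin-converting enzyme and a relative of neprilysin, was read well above background in every pool. Its brighter probe set had intensities of 2272.1 and 3316.3 in Cyc against 2770.9 and 2816.9 in Wt cells. The Wt pools lay between the Cyc pools, with a log2 difference of -0.03 (standard error 0.28), -0.28 in experiment 1 and 0.23 in experiment 2. A dimmer probe set had intensities of 176.6 and 218.6 in Cyc against 245.6 and 216.4 in Wt cells, and the groups overlapped (log2 difference -0.21, standard error 0.25). A further probe set stayed at 5.8 or less in all pools.

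Among the aminopeptidases, Enpep, which removes the acidic first residue of angiotensin II, had intensities of 309.6 and 480.4 in Cyc against 262.4 and 323.3 in Wt cells. The Cyc pool was the brighter in each experiment, by 0.23 and 0.55 on the log2 scale, but the groups overlapped. The difference of 0.39 had a standard error of 0.31, or of 0.20 with the experiment as a block. Anpep, whose product removes the first tyrosine of enkephalins, had intensities of 22.2 and 39.7 in Cyc against 15.6 and 6.8 in Wt cells. All lie near background, so Anpep was not tested and no fold change is given. Thus of both enkephalin-degrading enzymes named above, Mme passed 50 in the Wt pools and Anpep in none.

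Ace, the angiotensin-converting enzyme, was read by a pair of probe sets that differ in experiment 2. The first probe set had intensities of 385.3 and 889.6 in Cyc against 375.8 and 508.6 in Wt cells. The Cyc pool of replicate 2 was the highest, with log2 differences of 0.03 in experiment 1 and 0.79 in experiment 2 and a fitted value of 0.41 (standard error 0.46). The second had intensities of 260.4 and 239.9 in Cyc against 219.8 and 205.6 in Wt cells. Here the Cyc values did not overlap the lower Wt values, with differences of 0.23 and 0.21 in experiments 1 and 2, a fitted difference of 0.22 (standard error 0.23). Both Cyc pools were above both Wt pools in 15.1% of all tested probe sets and in 1 of the 8 members. No member was higher in Cyc cells past both thresholds, as 0.735% of all tested probe sets were.

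Enpep and the first Ace probe set followed 1 order over the pools, from the Cyc to the Wt pool of replicate 2 and on to the Cyc and Wt pools of replicate 1. This order was found in 6 of 8 mural markers, genes of pericytes and smooth muscle, and in 8.26% of all tested probe sets. The second Ace probe set did not follow it and was highest in the Cyc pool of replicate 1. The summed intensity of the mural list was 12685 and 23451 in the Cyc pools of replicates 1 and 2 and 10700 and 14953 in the Wt pools, with no marker at 0. Kcnj8 and Abcc9, channel subunits of pericytes, rose past the thresholds, 6 mural markers did not pass, and the median log2 difference of the list was 0.63. The part of mural RNA in the Enpep and Ace values was not tested. The 9 endothelial markers, genes of the cells in which Ace and Ece1 are known to be expressed, had a median of -0.15 and none passed the thresholds.

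Dpp4, a serine peptidase that clips dipeptides from chemokines, lay lower in Cyc cells in experiment 1 and higher in experiment 2. Its tested probe set had intensities of 16.6 and 104.1 in Cyc against 58.2 and 22.5 in Wt cells. In experiment 1 the log2 difference was -1.19, with Cyc cells, under 50, at least 1.16-fold dimmer. In experiment 2 it was 1.64, with Cyc cells at least 2.08-fold brighter. The fitted difference of 0.23 had a standard error of 0.72. Opposite differences of 1 or more on the log2 scale with 16 added were found in 0.285% of all tested probe sets and in 1 of the 8 members. The other 3 Dpp4 probe sets lay under 50 in all pools, the highest at 42.3 in the Wt pool of replicate 1, and gave no second reading.

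The order of Dpp4 over the pools was shared by most mesothelial markers and by some markers of other cell types. Like Dpp4, 5 of 6 mesothelial markers were highest in Cyc replicate 2 and second highest in the Wt pool of replicate 1. So were 3 of 6 airway markers, 2 of 8 macrophage markers, Lyz2 and Csf1r, and 7.18% of all tested probe sets. Upk3b, a uroplakin of mesothelium, was at 35.2 and 702.5 in Cyc against 368.9 and 20.7 in Wt cells. Msln, or mesothelin, was at 14.1 and 209.3 in Cyc against 76.5 and 25.8 in Wt cells. The exception was Wt1, at 478.2 and 596.4 in Cyc against 440.0 and 597.4 in Wt cells, and no mesothelial marker lay under 50 in all pools. Summed over the 6 markers, the intensities were 611.3 and 2262 in Cyc against 1245 and 682 in Wt cells. None of the mesothelial, airway or macrophage markers passed the thresholds, and their part in the Dpp4 values was not tested.

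**Figure D2:**
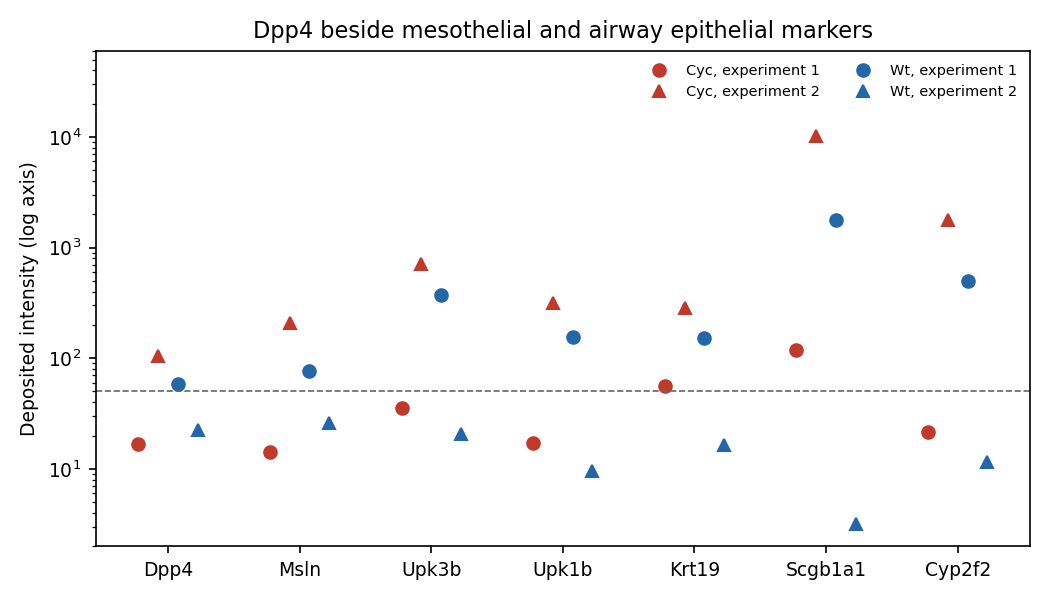
Deposited intensity (log axis) of Dpp4 (tested probe set), of the mesothelial markers Msln, Upk3b, Upk1b and Krt19 and of the airway markers Scgb1a1 and Cyp2f2 in each pool, drawn as in the plot of the members, with a dashed line at 50. In all 7 genes the Cyc pool of experiment 2 is highest and the Wt pool of experiment 1 second, while the other pools lie lower. The markers drawn are among those with this order. Wt1 of the mesothelial list and Sftpb, Sftpc and Epcam of the airway list do not follow it and are not drawn.

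Over the 8 tested member probe sets, the median log2 difference was 0.10, against -0.02 over all tested probe sets. It was -0.36 in experiment 1 and 0.22 in experiment 2, where all tested probe sets had medians of -0.10 and 0.06. The 8 were kept by intensities reaching 50 in 2 arrays or more, while 6 probe sets, among them the only one for Anpep, were not tested.

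**Figure D3:**
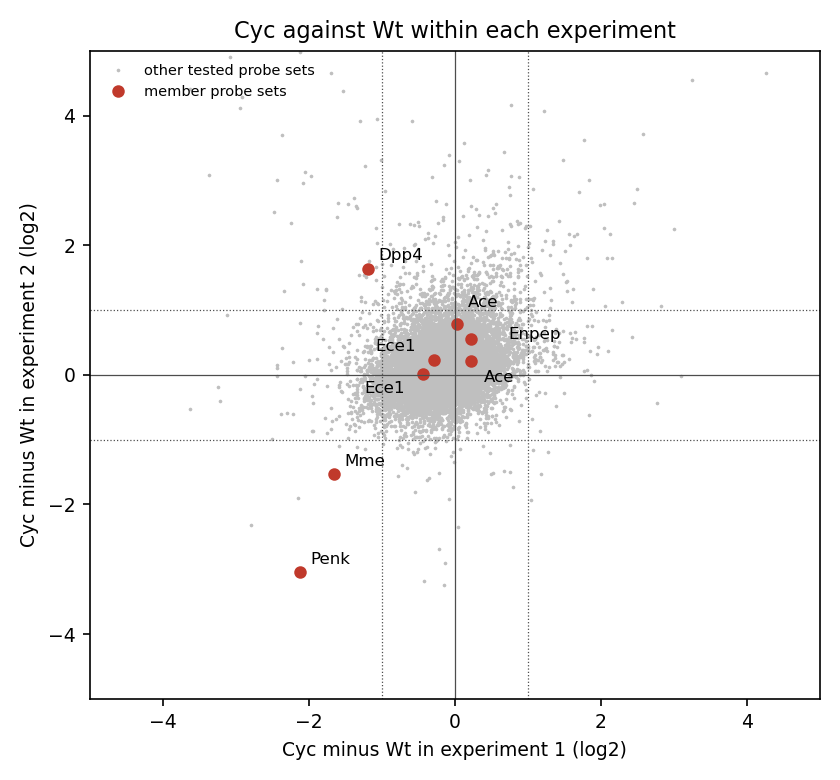
Log2 difference Cyc minus Wt in experiment 1 (horizontal) and in experiment 2 (vertical) of the 8 tested member probe sets (red) and of all other tested probe sets (grey), with 16 added before log2, dotted lines at differences of 1 and -1, and 9 of the other probe sets lying outside the axes. Penk and Mme lie below -1 in both experiments, Dpp4 beyond the lines in opposite directions, and the 5 probe sets of Ece1, Enpep and Ace within them.

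The genes whose pattern over the 4 arrays was most like that of Penk were Agpat5, Cxcl14, Mme, Hsph1 and Ccl11, in this order. Likeness was measured as the Euclidean distance between log2 profiles centred on their means, which was 0.78 for Agpat5 and 1.57 for Ccl11, with Mme at 1.17 and rank 3 of 17923 other probe sets with 1 symbol. With 4 arrays such a profile rests mainly on the Cyc against Wt difference, on which Penk and Mme were selected. Nothing is therefore read from the rank of Mme. The probe sets of Mme, Agpat5, Cxcl14 and Ccl11 reached 50 in the Wt pools alone. Agpat5, an acyltransferase of lipid synthesis, was under 0 in both Cyc pools and at 94.5 and 64.0 in Wt cells. Cxcl14, a chemokine, was at 6.9 and 3.0 in Cyc against 85.1 and 55.2 in Wt cells, and Ccl11, the eotaxin gene, was at 13.1 and 30.4 in Cyc against 148.7 and 75.9 in Wt cells. Hsph1, a heat shock protein, was at 942.9 and 275.8 in Cyc against 1384 and 1005 in Wt cells.

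Of the 9 fibroblast markers, 8 did not pass both thresholds. Col1a1, a collagen chain, was higher in Cyc cells past both (456.1 and 905.5 against 321.3 and 242.5). The median log2 difference of the list was 0.43, with 0.11 in experiment 1 and 0.75 in experiment 2. The part of fibroblast RNA in the Penk and Mme values was not tested. Pdgfra, a receptor that marks fibroblasts, was at 1160 and 1584 in Cyc against 1802 and 1414 in Wt cells, and Dcn, a proteoglycan, at 10929 and 11021 against 13443 and 9031. Of 6 measured genes of surface proteins and fibroblast states, among them Pdgfra, Thy1 and Dpt of the fibroblast list, none passed, with a median of 0.21. Pi16, a gene of adventitial fibroblasts, was at 1856 and 1635 in Cyc against 1430 and 1082 in Wt cells, and both groups lay apart. Cardiomyocyte RNA was also read, with summed intensities of 3618 and 2566 in Cyc against 3867 and 2500 in Wt cells over 10 markers. Without Nppa, the brightest of them in Cyc cells, the sums were 2137 and 1938 in Cyc against 3696 and 2380.0 in Wt cells, lower in both Cyc pools. The median log2 difference of the list was -0.55, with -1.18 in experiment 1 and -0.51 in experiment 2. It lay below 0 along with Penk and Mme, as did the endothelial median of -0.15 and the adipocyte gene Pparg at -0.53. The medians of the other cell type lists with tested genes lay above 0. Nppa was higher and Myl2 and Mb were lower past both thresholds, and the part of this RNA in the Penk and Mme values was not tested. Macrophage, lymphocyte and adipocyte markers had 3, 1 and 1 tested genes, with none past the thresholds. The lymphocyte and adipocyte markers were mostly near background. All macrophage markers but Fcgr1 reached 50 in the Cyc pool of replicate 2, where Lyz2 was at 560.1 and Csf1r at 218.9. The part of macrophage RNA in the Penk and Mme values was not tested. The 8 macrophage markers summed to 403.7 and 1170 in Cyc against 406.1 and 223 in Wt cells, and no Schwann cell marker was tested.

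The other opioid precursors and the opioid receptors were mostly dim. Of 8 opioid precursors and receptors, 2 were tested and neither passed the thresholds (median log2 difference 0.26). Pomc, the precursor of beta-endorphin, was at 58.8 and 57.0 in Cyc against 51.7 and 55.8 in Wt cells. Ogfr, a receptor of met-enkephalin unrelated to the classical opioid receptors, was at 545.7 and 558.1 in Cyc against 403.6 and 404.7 in Wt cells, a log2 difference of 0.43 (standard error 0.22). Oprd1, the delta receptor, lay between -2.4 and 5.7. Oprm1, the mu receptor, reached 50 in the Wt pool of replicate 1 alone, at 58.1.

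Of 13 enzymes that cut and trim neuropeptide precursors, 8 were tested and none passed (median 0.14). Cpe, the carboxypeptidase that trims proenkephalin fragments, was at 2070 and 2773 in Cyc against 1167 and 1309 in Wt cells. Its groups did not overlap and its log2 difference was 0.95 (standard error 0.26), just under the 2-fold threshold (limma, adjusted p = 1), and it passed as higher without the Cyc pool of replicate 1. Pam, which amidates peptides, was at 969.1 and 1829 in Cyc against 804.4 and 838.1 in Wt cells, with log2 differences of 0.26 and 1.11 in experiments 1 and 2, and it passed under the same setting. Ctsl, a cathepsin that can cleave proenkephalin, was at 5150 and 5291 against 4861 and 4133, and Cpd, a relative of Cpe, at 1398 and 3352 against 1887 and 3005. Pcsk1, a convertase of neuroendocrine cells, lay between 5.9 and 21.8.

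Of 31 further peptidases acting on peptides, 19 were tested and none passed (median 0.05). Xpnpep1, an aminopeptidase that cleaves bradykinin, was at 911.9 and 1043 in Cyc against 699.6 and 765.7 in Wt cells (log2 difference 0.41, standard error 0.23), and Prcp, which removes the last residue of angiotensin II, at 663.9 and 687.3 against 353.4 and 558.1 (0.59, standard error 0.30). Cpm, a membrane carboxypeptidase, was the lowest of this list with a difference of -0.60 (standard error 0.35). Fap, the closest relative of Dpp4, had a difference of 0.04 (standard error 0.31). Mmel1, the closest relative of neprilysin, lay between -5.9 and 3.4 and so near background in all pools.

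Of 30 peptides cleaved by the members and their receptors, 14 were tested (median 0.15). Past both thresholds 2 were higher in Cyc cells, as were 0.735% of all tested probe sets. None was lower, as 0.116% of all tested probe sets were. The 2 higher genes encode natriuretic peptides, which neprilysin degrades, and Nppa also stands in the cardiomyocyte list. A link of these genes with the Mme values was not tested. Nppa was at 1482 and 627.7 in Cyc against 171.5 and 119.5 in Wt cells, a rise of 2.62 on the log2 scale (standard error 0.48, limma, adjusted p = 1). Nppb was at 96.0 and 54.1 in Cyc cells and under 50 in both Wt pools, hence at least 1.44-fold higher (1.28 on the log2 scale, standard error 0.34), and it missed the thresholds in 5 settings: with a pseudocount of 50, a filter at 100 or a test without moderated variances, and without either pool of replicate 1. The study names Nppa as changed on these arrays, so this count is not independent evidence of a direction. Their receptor Npr1 was at 172.2 and 182.1 in Cyc against 180.6 and 189.1 in Wt cells.

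Cxcl12, a chemokine that Dpp4 clips, was at 5854 and 7126 in Cyc against 9140 and 9261 in Wt cells. Both Cyc pools lay below both Wt pools, and the log2 difference of -0.51 (standard error 0.24) did not pass. Edn1, whose precursor Ece1 cleaves, was at 483.1 and 400.5 in Cyc against 544.8 and 327.5 in Wt cells, and Ednrb, an endothelin receptor, at 2891 and 3490 against 1901 and 2602. Ramp2, a partner of the adrenomedullin receptor, was at 4790 and 4709 against 4399 and 4770. Agt and Agtr1a, the angiotensin precursor and receptor, were near background, with the highest value 39.5 for Agtr1a in the Cyc pool of replicate 2. With 2 pools per group, limma's p-values rest on the spread between these pools and on that of the other tested probe sets. Such spread may be technical.

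**Figure D4:**
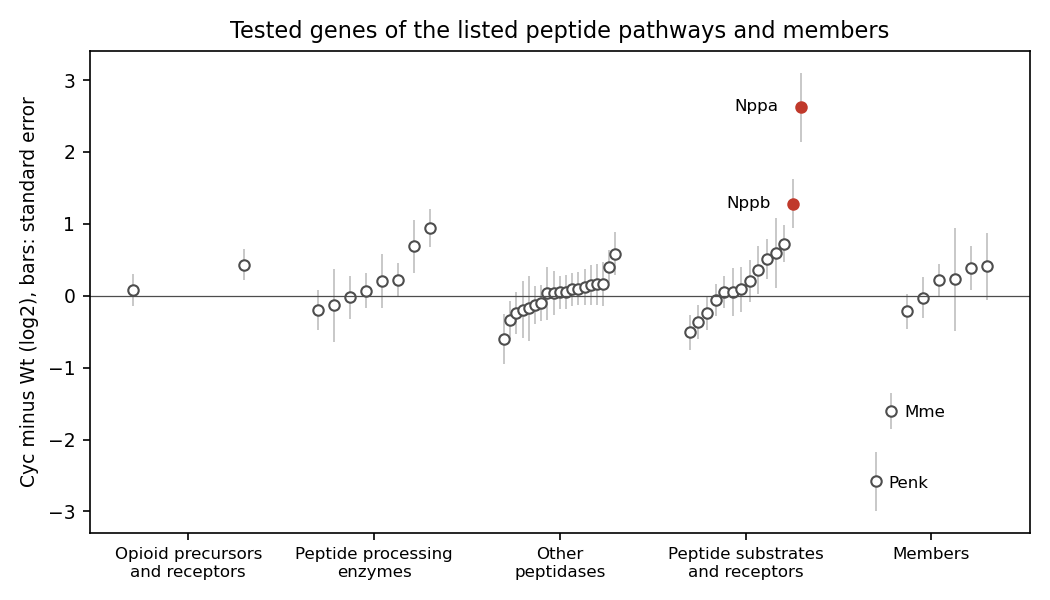
Log2 difference Cyc minus Wt (vertical, points with bars for 1 standard error) of the tested genes in 4 lists of peptide pathways and of the 8 tested member probe sets, each ordered by size, with filled red points for listed genes past both thresholds (2-fold, p under 0.05 before adjustment) and open points for all members. Nppa and Nppb lie above, Penk and Mme below, and the other points lie between -0.60 and 0.95.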

How the data were processed

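Total RNA of 4 pools was hybridised to Affymetrix Mouse 430 2.0 arrays. The deposited values are intensities that the authors normalized in Resolver 7.2, 1 per probe set and array, and they fall below 0 where background exceeded signal. The methods of background correction and summary are not given in the sources used here. After 64 control probe sets were left out, 45037 remained, of which 34945 have 1 gene symbol in the platform annotation, 932 several and 9160 none. Of the 34945, 34741 matched RefSeq genes (GRCm38.p6) by gene ID. In each array the size of 95% of the values below 0 was at most 44.4, and 50 was taken as the limit of background. Array medians over tested probe sets differed by at most 0.47 on the log2 scale and were not scaled further.

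Negative values were replaced by 0 and the log2 of each value plus 16 was used. Probe sets reaching 50 on 2 or more arrays (20680) were fitted with limma 3.58.1 in R 4.3.3, without a block (residual degrees of freedom 2, prior 2.68), with adjustment by Benjamini and Hochberg. Resolver's error model could not be run on these values. A bound ("at least") sets the geometric mean of the brighter group, or its single pool, against 50. The procedure was tested on simulated data. Same-numbered arrays were taken as 1 experiment: their deviations from the group means correlated at 0.45, and the 27 poly-A control probe sets had medians of 250.1 and 213.9 in replicate 1 and of -1.1 and 0.6 in replicate 2.

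The members and gene lists were chosen with earlier results of these data known. Named were all members, listed genes past both thresholds, the 2 brightest of each pathway list (marker lists stand mostly at their sums) and the 5 genes nearest to Penk. Other listed genes were picked for their role or after their values were seen, as were the 2 orders over the pools whose shares are given. Listed genes stand at their brightest tested probe set. Alternatives were other pseudocounts, filters, normalizations and tests, the block, and leaving out each array. The number of arrays limits the precision.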

Additional observations from a re-analysis of the deposited data

How the results depend on the processing

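The log2 difference of Penk was -2.94 with a pseudocount of 1, -2.08 with 50 and -2.79 with quantile normalization, with -3.11 when Cyc replicate 1 was left out and -2.06 when Cyc replicate 2 was. The filters, the block, the trend and the t-test leave this value as it is by construction, and leaving out 1 of 2 pools cannot move it past the spread between them, so these say nothing of its stability. As Penk and Mme were selected on these arrays, their passing the thresholds again is no support. The Mme difference was -2.14 with a pseudocount of 1, -1.04 with 50 and -1.81 with quantile normalization, and it was not tested with a filter at 100, which left 1 member lower in Cyc cells. With the replicate number as a block 2 member probe sets were counted as lower, the differences of Penk and Mme were -2.58 and -1.60, and no listed gene changed its call. Member probe sets higher in Cyc cells numbered from 0 to 1 when each array was left out, the 1 being Dpp4 without the Cyc pool of replicate 1. The members' median of 0.10 was -0.33 when Cyc replicate 2 was left out and 0.20 when Cyc replicate 1 was, so its sign depends on single pools. Of all listed genes, markers included, 7 passed both thresholds, against 4 with a pseudocount of 50, 4 without a filter and 0 with a plain t-test (equal variances), which the study does not name for its arrays, and from 3 (without the Wt pool of replicate 1) to 20 (without the Cyc pool of replicate 1) when each array was left out. Of the marker genes, Col1a1 and Abcc9 did not pass without the Cyc pool of replicate 2 or either Wt pool, Kcnj8 without the Cyc pool of replicate 1 or the Wt pool of replicate 2, Mb without the Cyc pool of replicate 2 or the Wt pool of replicate 1, and Myl2 without either pool of replicate 1. Over all probe sets, 24 were lower and 152 higher, against 46 and 178 with a pseudocount of 1, 19 and 93 with 50, 37 and 148 without a filter, 36 and 194 with equal medians, 47 and 191 with the replicate block, 7 and 47 with the plain t-test, 60 and 581 without the Cyc pool of replicate 1 and 1050 and 117 without that of replicate 2. Among the marker genes, Kcnj8 also did not pass with a pseudocount of 1 or 50, without a filter or with quantile normalization. Mb did not pass without a filter or with quantile normalization, Col1a1 without a filter, and Abcc9 with a pseudocount of 50. The causes of these shifts were not tested. With 2 arrays per group and values near background for Penk in 1 and Mme in both Cyc pools, the sizes of their falls are bounds more than estimates.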
